A study of Mus musculus with 4 samples.

Results

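The ubiquitin-specific proteases of the mouse were taken as the genes whose symbol is Usp followed by a number, with or without an ending x or l. By this rule 49 of the 38924 gene identifiers in the files were members. Of these, 45 were counted on their own. The other 4 shared a row with overlapping genes, namely Usp10 with Galnt2 and Gm20388, Usp15 with Gm27920, Usp49 with Med20 and Gm20517, and Usp50 with Gm10774, and their gene values belong to the joint row. RNA had been sequenced from 2 Tdrd6+/- and 2 Tdrd6-/- samples of mice at 20 days post partum. Every sample held hCD4+ cells selected from testis with magnetic beads and was pooled from at least 4 mice. The mice of both genotypes carry human CD4 under the endogenous Tdrd6 promoter, which marks late meiotic prophase germ cells, mainly in diplotene. The controls thus lack 1 functional Tdrd6 allele, and no wild-type animal was measured. The comparison asks which genes and which parts of their transcripts differ when Tdrd6, a Tudor domain protein of male germ cell granules that the study connects to spliceosome assembly, is missing.

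Ubiquitin is a small protein that is joined to other proteins and marks them for degradation, trafficking or signalling. Ubiquitin-specific proteases are the largest family of enzymes that remove it again, through a cysteine in a conserved catalytic domain, and members differ in the substrates and cofactors they bind. In male germ cells they are known for acting on histones during meiosis and chromatin remodelling, in DNA repair, and in endosomal sorting while the acrosome forms.

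The files hold counts of sequenced fragments. Gene counts summed to 26454326 to 31388750 per sample and intron counts to 9603669 to 13937818, lowest in Tdrd6-/- replicate 2. Tdrd6 itself had 33220 and 39322 counts in Tdrd6+/- and 359 and 400 in Tdrd6-/- cells, in accord with the labels. Of the 8 late prophase markers all were tested, with 1 higher and 2 lower, Tdrd6 included. The summed level of 6 spermatid markers was 9.20 and 13.1 CPM (the count per fixed number of sequenced fragments) in Tdrd6+/- and 21.7 and 19.7 CPM in Tdrd6-/- cells. Acrv1 and Spaca1 were the 2 spermatid markers with enough counts for the test and both were higher, whereas Prm1 and Tnp2 had fewer than 10 counts over all samples. Sertoli cell markers summed to 70.6 and 72.2 CPM in Tdrd6+/- and to 84.3 and 89.0 CPM in Tdrd6-/- cells, with 0 of 6 passing the test. Clu had the largest part, with 38.5 and 42.7 against 47.4 and 60.4 CPM. Sox9 had a log2 fold change of -0.78, and the others ran from 0.08 for Gata4 to 0.41 for Clu. Spermatogonium and early prophase markers summed to 23.9 and 22.5 against 27.2 and 31.2 CPM. Leydig markers gave 17.1 and 21.2 against 22.1 and 19.8 CPM, and macrophage markers 2.94 and 3.84 against 5.25 and 2.62 CPM. None of these passed. The part of these other cells in the results below was not tested, and in bulk RNA fewer cells of a type and less RNA per cell cannot be told apart.

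To rank the family by expression, gene counts were scaled to CPM with TMM, an adjustment of library sizes, and divided by the kilobases of annotated exon, a level per length that can be compared between genes. The 45 members counted alone had a median level of 6.47 CPM per kb, against 1.73 CPM per kb for all 18827 genes with at least 10 counts, and 35 of the 45 lay above that median gene. Levels ran from 206 to 0.00697 CPM per kb, with 21 members above 10, 17 between 1 and 10, and 7 below 1.

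Usp1, which with its cofactor Wdr48 removes ubiquitin from DNA repair proteins such as PCNA and Fancd2, had the highest level. It stood at 211 and 236 CPM per kb in Tdrd6+/- and 196 and 180 CPM per kb in Tdrd6-/- cells, rank 141 of all genes. Usp8, a protease of endosomal sorting, followed with 149 and 180 against 154 and 148 CPM per kb. Over both genotypes together these ranges overlapped, so the order of the first 2 genes was not set by more than the pooled spread. Within each genotype, however, Usp1 was higher than Usp8 without overlap. A gap without overlap separated them from Usp32, with 98.8 and 98.2 in Tdrd6+/- and 59.9 and 51.2 CPM per kb in Tdrd6-/- cells, and Usp47, a protease linked to base excision repair, with 66.6 and 73.0 against 71.7 and 70.0 CPM per kb. Usp32 had rank 3 in both Tdrd6+/- samples and rank 4 in both Tdrd6-/- samples, where it changed places with Usp47. The place of Usp47 depended on the length used. Divided by the longest annotated transcript in place of all annotated exon it had 166 CPM per kb, above Usp8 with 159. Without length it had the highest mean, at 917 and 1004 CPM in Tdrd6+/- and 986 and 962 CPM in Tdrd6-/- cells. Usp34 overlapped it in Tdrd6+/- cells, with 941 and 967 CPM, but not in Tdrd6-/- cells, with 608 and 457 CPM. Usp1 had 786 and 881 against 731 and 671 CPM.

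The next genes lay close together. Usp7, the protease of Mdm2 and p53, had a mean of 47.3 ± 2.62 CPM per kb (SD, n = 4), Usp34 had 40.3 ± 13.6, Usp2 had 40.3 ± 13.7, Usp42 had 35.6 ± 6.93, Usp24 had 34.5 ± 8.24 and Usp4 had 33.7 ± 1.86 CPM per kb. None of these neighbours was separated from the next by more than the range of all 4 samples. That range holds differences between the genotypes as well as the spread within them. The order here also depended on the length used. By the longest annotated transcript Usp4 had 79.4 CPM per kb, above Usp7 with 77.5 and Usp34 with 60.9, and Usp24 had 40.3, below Usp19 with 48.1. The wide spread of Usp34, Usp2 and Usp24 came with genotype: in Tdrd6+/- cells they ranked 6, 5 and 8 in the family and in Tdrd6-/- cells 10, 11 and 12. In the whole order, 35 of the 44 pairs of neighbours overlapped in these pooled ranges, and 9 members moved by more than 2 ranks between the genotypes. Over the 21 members above 10 CPM per kb, the median coefficient of variation over the 4 samples was 9.58%.

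**Figure D1:**
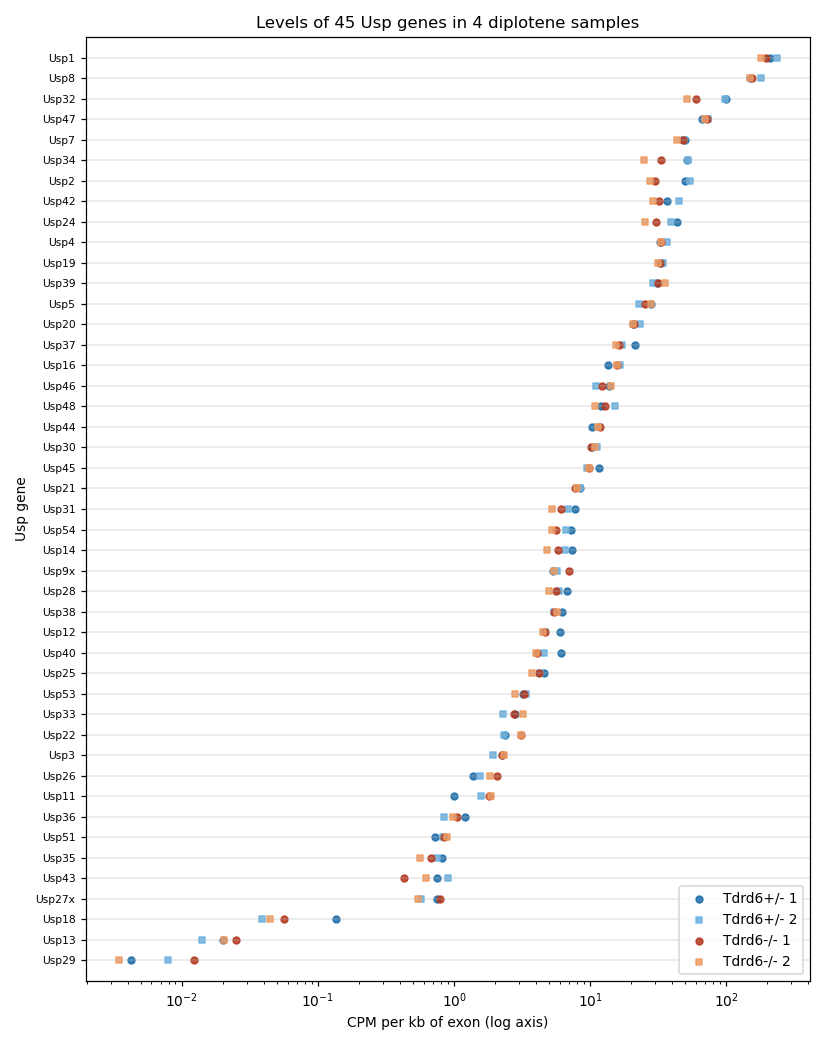
Level of each of the 45 Usp genes counted alone in the 4 samples, in CPM per kb of exon on a log axis, ordered by mean. Points are single samples, blue for Tdrd6+/- and red or orange for Tdrd6-/-. Usp1 and Usp8 stand above the rest, the Tdrd6-/- points of Usp32, Usp34, Usp2 and Usp24 lie to the left, and Usp18, Usp13 and Usp29 are near 0.

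At the low end stood Usp43 with a mean of 0.675 ± 0.200, Usp27x with 0.665 ± 0.123, Usp18 with 0.0692 ± 0.0457, Usp13 with 0.0199 ± 0.00443 and Usp29 with 0.00697 ± 0.00403 CPM per kb (SD, n = 4). Usp18, known for removing the ubiquitin-like protein ISG15 after interferon, had 10 and 3 counts in Tdrd6+/- and 5 and 4 in Tdrd6-/- cells. Usp13, the close relative of Usp5, had 4 and 3 against 6 and 5 counts. Usp29, an imprinted gene next to Peg3, had 2 and 4 against 7 and 2 counts on its only deposited exon segment, so its division by the full annotated exon length understates it. These 3 genes had too few counts for the gene test, and at this depth no difference between genotypes could be detected for them.

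For the test between genotypes, edgeR's quasi-likelihood test was run on all gene counts and an adjusted p under 0.1, that is a false discovery rate (FDR) of 10%, counted as passing. Of 46 members tested, 4 passed with Benjamini-Hochberg adjustment, and all 4 were lower in Tdrd6-/- cells: Usp2, Usp34, Usp32 and Usp24. Over all 16555 genes tested, 4.80% passed in either direction and 3.78% were lower, so 4 of 46, or 8.70%, was above the background share, at a count of 4. The median log2 fold change was -0.09 over the members and 0.01 over all genes tested. Both Tdrd6-/- samples lay below both Tdrd6+/- samples in CPM for 19 of 46 members, where all genes gave 23.4%, and above them for 7 of 46, where all genes gave 20.1%. All 4 genes that fell were among the 10 highest in level. Genes with more counts are called more readily, and the median level was 6.47 CPM per kb for the members and 1.73 for all genes ranked. The shares above were not matched for level, and the part of level in them was not tested.

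Usp2, a protease with a long and a short form that has been tied to the circadian clock and to male fertility, had 6287 and 7276 counts in Tdrd6+/- and 4530 and 4219 in Tdrd6-/- cells. Its level went from 251 ± 14.9 down to 138 ± 8.08 CPM (SD, n = 2 in each genotype), and the log2 fold change was -0.87 (SE 0.13, adjusted p = 0.000328, edgeR). Usp34, a very large protease that acts on Axin in Wnt signalling and in the DNA damage response, had 24642 and 26951 against 19229 and 14634 counts, or 954 ± 18.7 and 533 ± 107 CPM (log2 fold change -0.84, SE 0.14, adjusted p = 0.00109, edgeR). The groups did not overlap for either gene.

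Usp32, linked to the endosomal GTPase Rab7, had 19869 and 21018 counts in Tdrd6+/- and 14545 and 12589 in Tdrd6-/- cells, or 757 ± 2.98 and 427 ± 47.1 CPM (log2 fold change -0.83, SE 0.13, adjusted p = 0.000596, edgeR). Usp24 had 14093 and 13376 against 11925 and 9958 counts, or 509 ± 41.0 and 344 ± 46.6 CPM (log2 fold change -0.57, SE 0.14, adjusted p = 0.0207, edgeR). Its smaller change rested on Tdrd6-/- replicate 2, without which the log2 fold change was -0.42 and the adjusted p 0.512 by edgeR. Usp2, Usp34 and Usp32 passed whichever sample was left out, although each such fit has 1 sample in a genotype and takes its spread from the other genotype and from other genes. Without a filter on low counts only Usp2 and Usp32 passed, with adjusted p of 0.136 for Usp34 and 0.264 for Usp24 by edgeR.

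**Figure D2:**
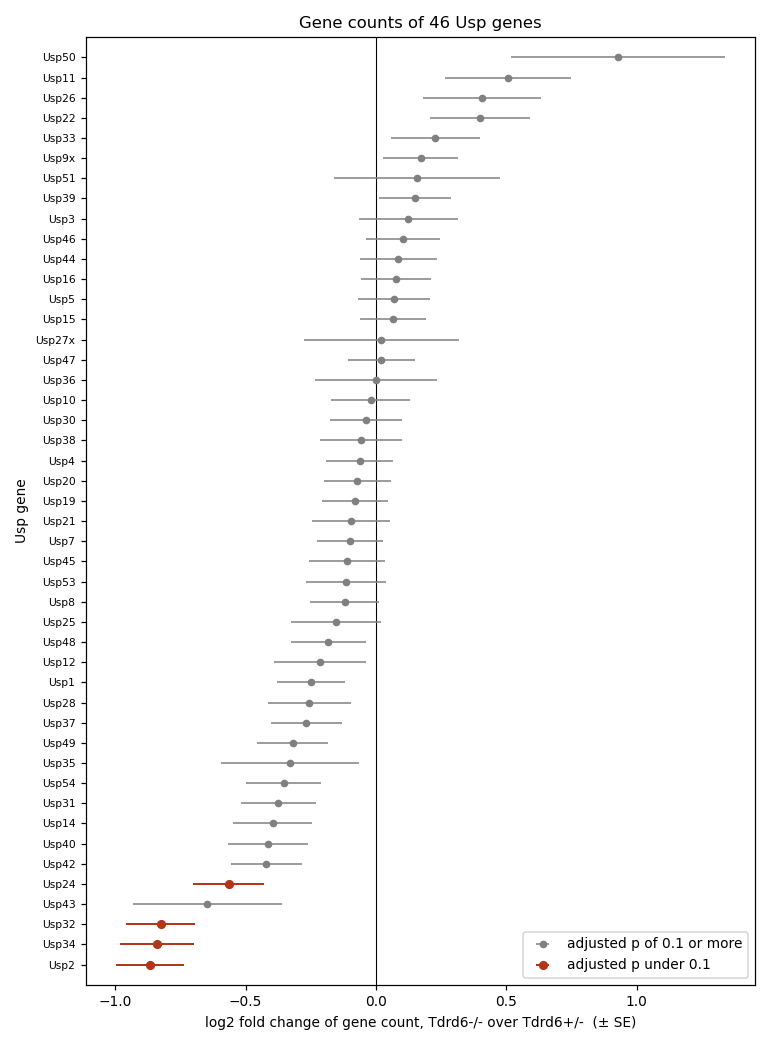
Log2 fold change of the gene count, Tdrd6-/- over Tdrd6+/-, with its standard error, for the 46 Usp genes tested with 2 samples per genotype. Red points passed an adjusted p of 0.1 in edgeR's quasi-likelihood test. The 4 red genes lie between -0.87 and -0.57, and 30 of the 46 points lie below 0.

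The other 42 members did not pass. The smallest p-values towards higher counts belonged to Usp50 (log2 fold change 0.93, SE 0.41, adjusted p = 0.294, edgeR), which shares its row with Gm10774, to Usp11 (0.51, SE 0.24, adjusted p = 0.353, edgeR) and to Usp22 (0.40, SE 0.19, adjusted p = 0.356, edgeR). Usp11 stood at 124 and 208 counts in Tdrd6+/- and at 268 and 284 in Tdrd6-/- cells, with a wide gap between the controls. Usp42, known for its high expression in spermatogenesis, missed the threshold at a log2 fold change of -0.42 (SE 0.14, adjusted p = 0.106, edgeR). It passed when replicate 1 of Tdrd6+/- was left out, and Usp11, Usp37 and Usp40 passed when replicate 2 of Tdrd6+/- was left out.

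Read by role, none of the spliceosome group passed. Usp39, an inactive family member that serves as a component of the U4/U6.U5 tri-snRNP, had 1990 and 1971 counts in Tdrd6+/- and 2418 and 2765 in Tdrd6-/- cells (log2 fold change 0.15, SE 0.14, adjusted p = 0.711, edgeR). Usp4 and Usp15, which the factor Sart3 brings to the spliceosome, had log2 fold changes of -0.06 and 0.06, and Usp49, an H2B protease tied to cotranscriptional splicing, had -0.32 in its joint row. All 8 members that act on histones H2A and H2B were tested and 0 passed. Their log2 fold changes ran from -0.10 for Usp7 and Usp21 to 0.40 for Usp22, the catalytic subunit of the SAGA deubiquitylation module, and its relatives Usp27x and Usp51 had 0.02 and 0.16.

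The 3 partners of Wdr48 did not pass, at -0.25 for Usp1, -0.21 for Usp12 and 0.10 for Usp46. The gene for Wdr48 itself had 20505 and 26899 counts in Tdrd6+/- and 27979 and 27650 in Tdrd6-/- cells. Usp5, which takes apart free ubiquitin chains, had a log2 fold change of 0.07, and Usp14, the protease bound to the proteasome, -0.40 (adjusted p = 0.198, edgeR). In the group of endosome, autophagy and mitochondrial proteases 0 of 5 passed, among them Usp8 at -0.12, Usp30 at -0.04 and the relatives Usp20 and Usp33 at -0.07 and 0.23. Of the 5 members tested that are known for germ cell expression, Usp2 passed. At an unadjusted p under 0.05, edgeR gave 14 of 46 members or 30.4%, against 14.0% of all genes tested, again not matched for level. By role it gave 2 of 5 in the spliceosome group, 1 of 8 in the histone group, 0 of 3 partners of Wdr48, 1 of 2 of Usp5 and Usp14, and 0 of 5 in the endosome group, and DESeq2's Wald test called 0 in each of these groups after adjustment.

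The 5 X-linked members had levels from 0.665 CPM per kb for Usp27x to 5.85 CPM per kb for Usp9x, with a median of 1.56, against a median of 10.4 CPM per kb over the 40 autosomal members counted alone. Usp26, an X-linked gene expressed in testis, had 150 and 179 counts in Tdrd6+/- and 269 and 244 in Tdrd6-/- cells. All 5 had log2 fold changes above 0, from 0.02 to 0.51, and 0 of 5 passed by edgeR or DESeq2, with 1 of 5 at an unadjusted p under 0.05 in edgeR.

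Usp34, on the plus strand of chromosome 11 of mm10 (23306895 to 23490560), did not change evenly along its length. The files give its parts as numbered exon segments and junctions without positions, and the numbers run along the chromosome. They hold 1 more exon segment, junction and intron than the GENCODE M21 annotation. Exon segment 7, junction J100 and intron 6, which had hardly a count, were taken as the extra ones. Leaving out intron 6 gave the highest correlation of log intron length with log count (r = 0.79 over 78 introns), against 0.70 for the next choice. Leaving it out also removes a point with hardly a count, which can raise the correlation by itself, so this does not decide the placement. The correlation covers introns only, and the choice of exon segment 7 and junction J100 was not tested. By this placement junction J103 joins exon 8 (23351592 to 23351653, 62 bp) to exon 9 (23354845 to 23354926, 82 bp) across an intron at chr11:23351654-23354844, all within the coding part of the transcript Usp34-205. Both exons are shown from GENCODE M21, since this junction was the part of Usp34 singled out, with the 10 bases on each side of the joint in capitals.

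Usp34 exons 8 and 9: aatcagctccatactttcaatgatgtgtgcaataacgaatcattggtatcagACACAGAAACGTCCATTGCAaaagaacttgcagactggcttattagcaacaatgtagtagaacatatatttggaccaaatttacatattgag

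Junction J103 had 241 and 254 counts in Tdrd6+/- and 92 and 88 in Tdrd6-/- cells. As a share of the Usp34 gene count this was 0.978% and 0.942% against 0.478% and 0.601%, or 0.960% ± 0.025 and 0.540% ± 0.087 (SD, n = 2 each), and the groups did not overlap. Its usage, the count relative to the rest of the gene, had a log2 change of -0.85 (SE 0.20) and an adjusted p of 0.0163 in a JunctionSeq-type likelihood ratio test fitted with DESeq2. The junction was named with earlier results of these data known, so these values are a description. By edgeR's usage test the log2 change was -0.81 with an adjusted p of 1, and the DESeq2 call was lost when replicate 1 of Tdrd6+/- was left out (-0.82), or either of the Tdrd6-/- samples (-0.68 without replicate 1 and -1.01 without replicate 2).

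The junctions around it moved alike. Junction J101 had 161 and 156 against 71 and 51 counts (log2 usage change -0.78, SE 0.23), junction J102 had 205 and 249 against 116 and 85 (-0.57, SE 0.19), and junction J104 had 170 and 219 against 85 and 75 (-0.67, SE 0.21). Junction J105 had 175 and 189 against 97 and 48 counts (-0.76, SE 0.24) and junction J106 had 208 and 211 against 97 and 86 (-0.59, SE 0.20). All 5 missed the threshold, with adjusted p from 0.182 to 0.455 in the same DESeq2 fit. Relative to the mean of these 5 neighbours, junction J103 stood at 1.31 and 1.24 in Tdrd6+/- and at 0.987 and 1.28 in Tdrd6-/- cells, and these groups overlapped.

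Of the 161 exon segments and junctions of Usp34 tested, 16 passed the FDR of 0.1 in DESeq2. The 12 with lower usage were junction J103 and 11 exon segments between number 9 and number 29, and the 4 with higher usage were exon segments 85, 86 and 93 and junction J175, the last junction of the gene. Exon segment 9 (23349151 to 23349343) had 603 and 631 counts in Tdrd6+/- and 282 and 230 in Tdrd6-/- cells, a log2 usage change of -0.67 (SE 0.14, adjusted p = 0.0018, DESeq2). Exon segment 93 (23488584 to 23489744), at the far end, had 2330 and 2714 against 2439 and 2055 counts (0.51, SE 0.10, adjusted p = 0.0014, DESeq2). Segment 93 held 3.86 and 4.30 counts for each count of segment 9 in Tdrd6+/- and 8.65 and 8.93 in Tdrd6-/- cells.

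The change followed the position in the transcript. Of the exon segments numbered up to 30, all 29 in the model had usage below 0, and of the last 30 segments 28 were above 0. The first 29 junctions in the model were below 0 and the last 20 above. In counts scaled by the size factors of the gene counts, the level itself was lower in every block of neighbouring segments: the log2 ratio of the genotype means was -1.35 for exon segments 1 to 8, -1.48 for segments 9 to 16, -0.92 for segments 41 to 48, -0.64 for segments 65 to 72 and -0.43 for segments 89 to 94. Junctions gave -1.35 for J095 to J102, -1.48 for J103 to J110 and -0.41 for J167 to J174. For J175 alone, scaled counts of 410 and 522 in Tdrd6+/- and 429 and 329 in Tdrd6-/- cells overlapped.

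The values for introns depended on the scaling, since size factors from all introns and from gene counts differ, most for Tdrd6-/- replicate 2 (0.854 from introns and 1.09 from genes). With factors from introns the log2 ratio was -0.62 for introns 1 to 8, -0.84 for introns 25 to 32, -0.21 for introns 65 to 72 and -0.42 for introns 73 to 79. With factors from gene counts, the scaling used for the exon segments, the same blocks had -0.91, -1.14, -0.52 and -0.70. Summed over all introns of Usp34 the log2 ratio was -0.49 with the first and -0.79 with the second scaling.

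**Figure D3:**
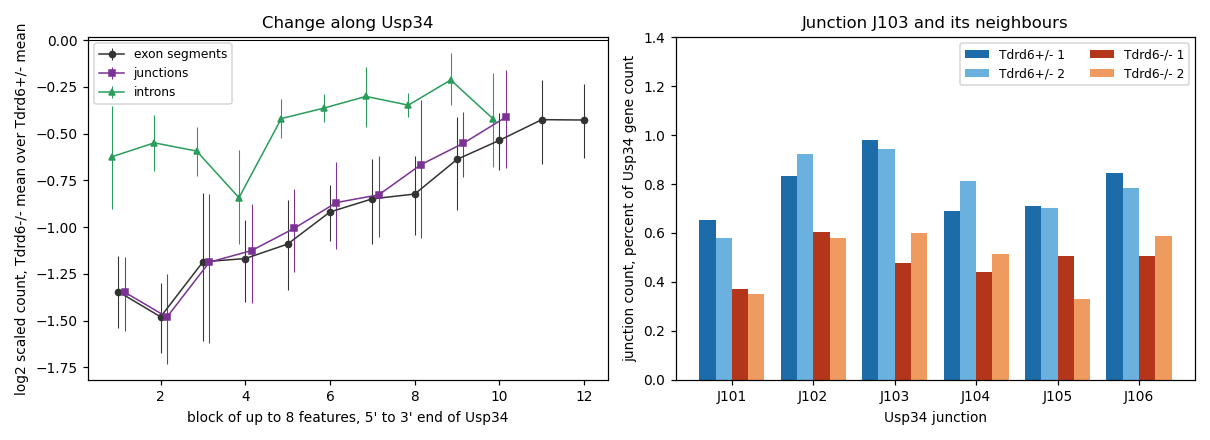
Left, log2 ratio of the scaled count of Usp34, Tdrd6-/- mean over Tdrd6+/- mean, in blocks of up to 8 neighbouring exon segments, junctions or introns from the 5′ to the 3′ end, with introns scaled by factors from introns and the others by factors from gene counts. Lines span the highest and lowest ratio that any pair of samples gave, and the ratio rises from -1.48 to about -0.43 for exon segments. Right, the counts of junctions J101 to J106 as a percent of the Usp34 gene count in each sample.

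To read the gradient with a test of its own, the exon segments of each gene were split by number into 3 equal parts and the counts of the 5′ part were set against those of the 3′ part, a test added after the Usp34 counts had been seen. In Usp34 the 5′ part had 17775 and 19736 counts in Tdrd6+/- and 10441 and 7871 in Tdrd6-/- cells, while the 3′ part had 17422 and 19292 against 16540 and 13216 counts. The log2 ratio of the parts in deposited counts was 0.03 in both controls, whereas the Tdrd6-/- samples had -0.66 and -0.75. The test scaled each part with size factors of its own, so its changes are relative to those of most genes. For Usp34 it gave a change of -0.81 (SE 0.09, adjusted p = 9.67e-16, DESeq2). This is the contrast from which the test was built, so it is no independent evidence for Usp34. Of 31 members tested, 2 passed, against 2.22% of all 5234 genes tested, 1.03% lower and 1.18% higher. Relative to the 3′ part, the 5′ part was lower in Usp34 and higher in Usp2. In Usp2 the 5′ part itself overlapped, with 426 and 580 counts in Tdrd6+/- and 557 and 512 in Tdrd6-/- cells. The 3′ part of Usp2 had 6852 and 7687 against 4485 and 4336 counts. Usp34 passed whichever sample was left out. Usp2 passed with all samples and without Tdrd6+/- replicate 2, but not when replicate 1 of Tdrd6+/- (0.62) or either Tdrd6-/- sample was left out (0.71 and 0.80), nor with 2 parts in place of 3 (0.26). The other 29 had changes from -0.30 for Usp21 to 0.52 for Usp3. Usp3, which acts on H2A, had log2 ratios of -0.71 in both Tdrd6+/- and -0.12 in both Tdrd6-/- samples, without overlap, but missed the threshold (SE 0.23, adjusted p = 0.372, DESeq2).

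**Figure D4:**
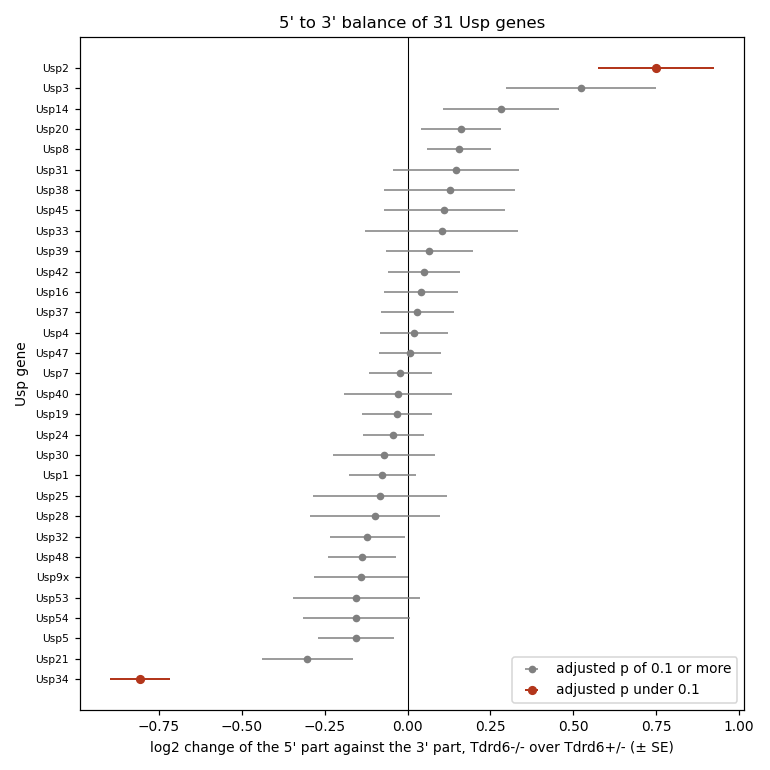
Change of the 5′ part against the 3′ part of the exon segments, Tdrd6-/- over Tdrd6+/-, on a log2 scale with its standard error, for the 31 Usp genes tested with 2 samples per genotype. Red points passed an adjusted p of 0.1 in DESeq2. Usp34 at -0.81 and Usp2 at 0.75 are the 2 ends of the order, and Usp3 comes next to Usp2 at 0.52.

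Usp34 also has a short exon of 36 bases, exon segment 15 (chr11:23362577-23362612), whose length keeps the reading frame. It is shown in capitals with 30 bases of the exon before and after it, from GENCODE M21, because the annotated transcript includes it while few fragments did.

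Usp34 short exon: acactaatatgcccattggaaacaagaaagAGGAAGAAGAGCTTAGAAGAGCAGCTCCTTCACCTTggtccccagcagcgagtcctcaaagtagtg

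Across the junction into this exon the controls had 14 and 19 counts and Tdrd6-/- cells 3 and 6, and the junction out of it had 9 and 13 against 3 and 6, while junction J106 just before had 208 and 211 against 97 and 86. An unannotated junction of Usp34, which the files name N176 and give no position, had 180 and 253 against 98 and 89 counts and a log2 usage change of -0.59 (SE 0.21, adjusted p = 0.542, DESeq2), about that of its junctions J102 to J106.

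Usp2 lies on the plus strand of chromosome 9 (44067021 to 44095627). Among the 37 members with a tested exon segment or junction, it was the only one besides Usp34 with a changed exon segment. Its longer transcripts, such as Usp2-201 with 619 codons, start further 5′ and pass through a coding exon at 44075366 to 44076222, which the files split into exon segments 6 and 7. The shorter transcript Usp2-202, with 396 codons, starts at the exon of segment 9 instead. Both run into the same exon at 44089132, the long form through junction 37 (44076223 to 44089131) and the short form through junction 38 (44085336 to 44089131). The 2 joints are shown from GENCODE M21, 30 bases from each side, with the shared exon in capitals, because counts across them tell the forms apart.

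Usp2 long form: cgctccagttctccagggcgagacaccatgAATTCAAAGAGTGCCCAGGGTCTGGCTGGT

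Usp2 short form: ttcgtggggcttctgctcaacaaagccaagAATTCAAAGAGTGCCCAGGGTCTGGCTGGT

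Exon segment 6 had 32 and 50 counts in Tdrd6+/- and 85 and 70 in Tdrd6-/- cells, and rose in usage by 1.58 on the log2 scale (SE 0.31, adjusted p = 0.000847, DESeq2). Without Tdrd6-/- replicate 1 it missed the threshold (1.49, adjusted p = 0.21, DESeq2), and without Tdrd6+/- replicate 1 it fell under the count filter (1.38). Segment 7 of the same exon had 21 and 26 against 50 and 41 counts (1.59, SE 0.39) and fell under the count filter of the test. Junction 33, which leads into this exon from the first one, had 5 and 2 against 14 and 15 counts. The short form's own exon, segment 9, had 290 and 429 against 332 and 317 counts (0.53, SE 0.16, adjusted p = 0.212, DESeq2). The last segment, number 31, had 2363 and 2417 against 1557 and 1350 counts. Usage of the long form's exon thus rose in a gene whose count fell. In scaled counts this exon stood at 58.9 and 79.6 in Tdrd6+/- and at 126 and 102 in Tdrd6-/- cells, while the last segment went from 2624 and 2532 to 1453 and 1237. The short form's exon, segment 9, stood at 322 and 449 in Tdrd6+/- and at 310 and 290 in Tdrd6-/- cells. Its scaled counts were thus lower in both Tdrd6-/- samples, by little against the first control.

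Junction 37 had 1 and 7 counts in Tdrd6+/- and 12 and 12 in Tdrd6-/- cells, and junction 38 had 92 and 136 against 99 and 78. The share of junction 37 in both was 1.08% (95% Wilson interval 0.190 to 5.84) and 4.90% (2.39 to 9.76) in Tdrd6+/- and 10.8% (6.29 to 17.9) and 13.3% (7.79 to 21.9) in Tdrd6-/- cells, where the intervals cover counting error only. The means were 2.99% ± 2.70 and 12.1% ± 1.78 (SD, n = 2 each). The groups did not overlap, and an exact two-sided permutation test gave p = 0.33, the smallest that 2 samples against 2 allow. Of these 2 junctions, that of the short form had more counts in all 4 samples. A further annotated junction into the same exon, junction 40 (44087266 to 44089131), is not part of the share. It had 5 and 9 counts in Tdrd6+/- and 12 and 6 in Tdrd6-/- cells.

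**Figure D5:**
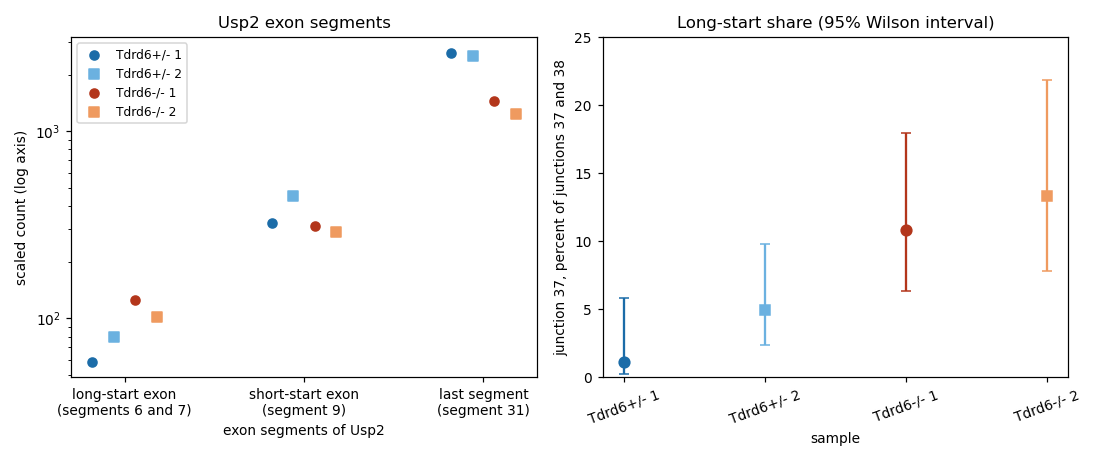
Left, scaled counts of 3 exons of Usp2 in each sample on a log axis: the exon of the long form, the first exon of the short form and the last segment. The long form's exon is higher in both Tdrd6-/- samples while the last segment is lower. Right, the share of junction 37 among junctions 37 and 38 in each sample with its 95% Wilson interval, from 1.08% and 4.90% to 10.8% and 13.3%.

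Across the family, 1374 exon segments and junctions of 37 members were tested and 17 passed the FDR of 0.1 in DESeq2, or 1.24%, against 0.221% of all 147710 tested. The 12 that were lower stand against 0.0731% over all features and the 5 that were higher against 0.148%. Of these, 16 lay in Usp34 and 1 in Usp2, and 0 in the other 35 members. Neighbouring segments share fragments, so the 16 calls in Usp34 are not separate observations. The count of 17 fell to 1 when replicate 1 of Tdrd6+/- or either of the Tdrd6-/- samples was left out. The call that was left lay in exon segment 16 of Usp34 without the control, in exon segment 93 of Usp34 without Tdrd6-/- replicate 1, and in exon segment 6 of Usp2 without Tdrd6-/- replicate 2. By comparison, edgeR's usage test called 3, all of them in Usp2 (exon segments 6 and 7 and junction 33). Shares over all features are not given for these other fits, so the counts do not tell whether the drop was particular to the family. Among junctions, 1 of 508 was lower, against 0.00402% of all 49700 junctions, which is 2 junctions. That 1 was junction J103 of Usp34, itself among those 2. It was named with earlier results of these data known, so the contrast of these shares was set by that choice and is no evidence about the family. Another 1 of 508, junction J175 of Usp34, was higher, against 0.103%. The 25 unannotated junctions of the family lay in 12 members, 5 of them had enough counts for the test and 0 passed. Junction 91 of Usp32, which had the highest count of the 25, had 241 and 252 counts in Tdrd6+/- and 154 and 132 in Tdrd6-/- cells, which was 1.21% and 1.20% against 1.06% and 1.05% of the gene count.

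Introns were asked in 2 ways. First, the usage of each intron against the other introns of its gene was tested in a DEXSeq-type model. Of 208 introns in 35 members, 4 passed the FDR of 0.1 in DESeq2, or 1.92%, where all 28903 introns gave 1.94%. Of the 4, 3 were lower and 1 higher, where all introns gave 1.22% and 0.716%. Intron 1 of Usp33 (chr3:152346640-152357839) had 131 and 115 counts in Tdrd6+/- and 98 and 41 in Tdrd6-/- cells, which was 17.6% and 19.4% against 12.3% and 6.09% of the intron counts of the gene (log2 change -1.18, SE 0.32, adjusted p = 0.0285, DESeq2). Intron 5 of Usp46 (chr5:74016737-74026292, minus strand, numbered along the chromosome) had 148 and 130 against 111 and 58 counts, or 20.4% and 19.8% against 13.2% and 9.81% (-0.94, SE 0.26, adjusted p = 0.0328, DESeq2).

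The other 2 introns were numbers 1 and 2 of the 3 introns of Usp49. Intron 1 had 545 and 497 against 335 and 156 counts (-0.94, SE 0.23, adjusted p = 0.011, DESeq2), and intron 2, which took 79.5% ± 2.26 of the intron counts in Tdrd6+/- and 87.0% ± 2.81 in Tdrd6-/- cells, rose (0.78, SE 0.19, adjusted p = 0.0116, DESeq2). In a gene with so few introns the share of one falls as that of another rises, and Usp49 overlaps Med20, so these are not 2 observations. In each of the 3 introns that fell, Tdrd6-/- replicate 2, the sample with the fewest intron counts, was the lowest. Without it, or without Tdrd6+/- replicate 1, 0 introns passed in DESeq2, with 11 and 15 at an unadjusted p under 0.05, and edgeR's usage test passed 0 of 865 with 21 at an unadjusted p under 0.05. Shares over all introns are not given for these fits, so the drop cannot be called particular to the family. The smallest p-values that did not pass towards higher usage belonged to intron 9 of Usp32 (0.71, SE 0.23, adjusted p = 0.109, DESeq2) and intron 13 of Usp47 (0.52, SE 0.23, adjusted p = 0.344, DESeq2).

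Second, the summed intron counts of a gene were set against its gene count, which shows changes that touch all introns alike. The test scaled intron and gene counts with size factors of their own, so its log2 changes are relative to those of most genes and differ from the ratios of the counts as deposited. Across the 34 members tested the ratio of intron to gene counts ran from 0.0449 for Usp1 to 1.96 for Usp3, with a median of 0.402. Usp2 alone passed, with a higher ratio, 1 of 34 or 2.94% against 3.18% of all 6061 genes tested in either direction and 1.04% higher. Its intron counts were 1018 and 1003 in Tdrd6+/- and 931 and 823 in Tdrd6-/- cells, so that the ratio of the deposited counts was 0.162 and 0.138 against 0.206 and 0.195, a log2 ratio of means of 0.42. With separate scaling the log2 change was 0.71 (SE 0.20, adjusted p = 0.0347, DESeq2). With common size factors it was 0.42 (SE 0.28), with an unadjusted p of 0.125 in DESeq2 and no adjusted p, since Usp2 then fell under the count filter. The call was lost when replicate 2 of Tdrd6-/- (0.53) or either control was left out (0.75 and 0.64). Over the members tested the median log2 change was 0.06, over all genes tested 0.00. The next smallest p-values were those of Usp32 (0.29, SE 0.16, adjusted p = 0.49, DESeq2) and Usp34 (0.32, SE 0.19, adjusted p = 0.531, DESeq2), which had 0.01 and 0.04 with common size factors, and towards lower ratios that of Usp45 (-0.26, SE 0.20, adjusted p = 0.681, DESeq2).

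On the scale of the gene counts, the summed introns of 3 of the 4 genes that fell had log2 ratios close to those of the genes: -0.79 for Usp34, -0.79 for Usp32 and -0.58 for Usp24, beside gene log2 fold changes of -0.84, -0.83 and -0.57. Usp2 had -0.43 in its introns beside -0.87 for the gene. With factors from introns the same sums gave -0.49, -0.50, -0.27 and -0.11.

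Of 62 other genes of the ubiquitin system tested, 3 passed by edgeR, or 4.84%, near the 4.80% of all genes. Of the other genes with a protease domain of this family, 4 had enough counts for the gene test and 0 passed by edgeR or DESeq2, with 1 at an unadjusted p under 0.05 in edgeR. In the OTU family 1 of 16 passed, Vcpip1, with 5883 and 5734 counts in Tdrd6+/- and 5106 and 4258 in Tdrd6-/- cells (log2 fold change -0.55, SE 0.14, adjusted p = 0.0251, edgeR). In the JAMM metalloprotease family 1 of 11 passed, Stambp, an endosomal enzyme, with 1878 and 1813 against 1233 and 1182 counts (-0.85, SE 0.14, adjusted p = 0.00118, edgeR). Of 11 partners of the family 1 passed, Atxn7, which anchors the deubiquitylation module in SAGA (-0.58, SE 0.15, adjusted p = 0.0357, edgeR). The Josephin and MINDY families and the genes for ubiquitin and its activating enzymes had 3, 4 and 8 members tested and 0 that passed by edgeR or DESeq2, with 0, 1 and 1 at an unadjusted p under 0.05 in edgeR. In the UCH family 0 of 5 passed by edgeR, with 1 at an unadjusted p under 0.05, and 1 by DESeq2, Uchl5 (log2 fold change -0.42, SE 0.14, adjusted p = 0.0682, DESeq2). The 3 that changed by edgeR were lower, as were 78.7% of all 794 genes that passed.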

How the data were processed

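The authors aligned paired-end fragments to mm10 with GSNAP, used Ensembl release 75, and deposited unnormalized counts per gene, exon segment, junction and intron. The counting program is not given in the sources used here. Libraries were directional after rRNA depletion. Symbols, positions and lengths came from GENCODE M21, whose exon segments and junctions equalled the deposited number in 25 members. All models were fitted over all genes or features with edgeR 4.0.16 and DESeq2 1.42.0 in R 4.3.3, and only the members are printed. Features needed at least 10 counts, and merged rows were left out for segments and junctions. DEXSeq and JunctionSeq were not installed, so their models were fitted with DESeq2 functions, with independent filtering. Scaled counts are counts divided by median-of-ratios size factors. Scripts were tested on simulated counts. Nothing states that replicates came from separate animals, so p-values measure the spread between these samples. Members, gene lists and tests were chosen with earlier results of these data known. Named were the 10 highest and 5 lowest levels, every member called, up to 3 of the smallest p-values in each direction and genes of the role groups. Not every feature or gene under these headings is printed.

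Alternatives were another test or scaling, filters, an FDR of 0.05, a replicate block, and leaving out each sample. The balance test and crossed pairs were added after seeing the data.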

Additional observations from a re-analysis of the deposited data

How the results depend on the processing

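Results are given as the number of members or features that passed. Apart from the filter on low counts, numbers over all genes or features are not given for the alternatives. The 4 genes with a changed count became 2 without a filter on low counts, when all genes called fell from 794 to 75, and 3 to 7 with a sample left out. All these genes were lower except Usp11, which passed as higher without Tdrd6+/- replicate 2. The 4 introns became 0 by edgeR's test and 0 to 7 with a sample left out. The 17 exon segments and junctions became 3 by edgeR's test and 1 to 15 with a sample left out. Junction J103 of Usp34 had a log2 usage change of -0.81 by edgeR, which did not pass, and -1.01 to -0.68 with a sample left out. The 1 gene with a changed ratio of intron to gene count became 0 with common size factors, where Usp2 had no adjusted p, and 0 to 1 with a sample left out. The 2 genes with a changed 5′ to 3′ balance became 1 when the gene was split into 2 parts and 1 to 2 with a sample left out. Of the 10 highest members, 9 to 10 stayed among the 10 highest with a sample left out, and 9 without length or by the longest transcript. No called value changed sign. Where the causes are not given by fewer samples or genes, the cause was not tested.

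The labels number replicates 1 and 2 in both genotypes. Deviations of same-numbered samples were little correlated (r = -0.117 over 12347 genes and 0.0469 over 44784 introns). With 2 samples per genotype these values cannot decide whether same-numbered samples were paired or shared a batch. With the replicate block, 5 genes, 7 introns, 10 exon segments and junctions, 0 intron to gene count ratios and 2 balances passed, and junction J103 stood at -0.85. With the crossed pairing, added after seeing the data, these counts were 5, 4, 11, 1 and 2.

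With 2 samples per genotype, counts of calls moved with single samples, and a fit without a sample assumes that the lone sample of a genotype varies like the others. Introns below a mean count of 85.5 and segments or junctions below 53.4 were not tested, so 657 of the 865 introns of the family in the model have no call.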
